A study of Mus musculus with 8 samples.

Results

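Actin genes and 2 regulators of actin filaments were described probe set by probe set in epididymal fat of male mice, an intra-abdominal depot attached to the epididymis. The genes were Actb and Actg1, the cytoplasmic actins, Acta2, the actin of smooth muscle, Pfn1, which encodes profilin 1, and Actr3, which encodes a subunit of the Arp2/3 complex. All probe sets that the platform annotation pairs with 1 of these 5 genes were taken, together with the actin control probe sets marked AFFX. That gave 22 of the 13179 probe sets on the arrays, 12 of them controls. The signals of these same arrays were known when the genes were chosen, so their levels and ratios are given as a description and with no test.

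Each of the 4 lines (DU6, DU6i, DUKs, DBA) contributed a single RNA pool from 20 males, all 42 days old. Every pool went onto 1 chip A and 1 chip B of an Affymetrix set, which makes 8 arrays. DU6 mice were bred over many generations for growth, and DU6i is their inbred derivative. DUKs is a line bred at random and DBA a common inbred strain. These descriptions are background from outside the labels, which give line names, sex, age and tissue. No treatment is named. With 1 pool a line nothing is replicated, so no pair of lines could be tested and the spread between animals is hidden. In such bulk tissue fewer cells of a type and less RNA per cell cannot be told apart. The tissue label was checked against markers of mature adipocytes: 9 of the 12 list genes were on the chips, all above the floor described below on every array, with summed signals of 158331 in DU6, 292980 in DU6i, 235077 in DUKs and 158978 in DBA. Of these 9 genes 7 were on chip A, and bright signals differed with the range of each array, as described below. The sums are therefore not a comparison of adipocyte content between lines. The pools also held transcripts of the germ line and the male tract, with summed signals of the germ cell list of 52034, 37539, 202031 and 94645 in the same order.

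Actin monomers join end to end into filaments that shape a cell, pull on it and move its vesicles. Profilin binds monomers and feeds them to growing filament ends, and the Arp2/3 complex starts new filaments as branches on old ones. In fat cells a layer of actin filaments lies under the plasma membrane, and precursor cells lose their thick actin bundles as they fill with lipid. Acta2 marks the smooth muscle of vessel walls, pericytes and myofibroblasts. The cytoplasmic actins are nearly the same in sequence and are made in almost every cell, which is why Actb serves as a control on these chips.

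The suffix of a probe set says how its probes were picked. A plain _at set was made for 1 transcript, an _s_at set has probes shared by similar transcripts, an _f_at set has probes shared within a gene family, and an _st control set has the opposite strand. Of the 22 probe sets 7 were plain _at (6 of them controls), 7 were _f_at, 2 were _s_at and 6 were _st controls. All probe sets of Actb other than the controls, and all those of Actg1 and Pfn1, were _f_at sets, so that transcripts of related genes and pseudogenes may add to them and the gene behind a signal is uncertain. The letters of the probes were not used here.

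A signal counted as measured above a floor, 1023 on chip A and 2258 on chip B, the 95th percentile of the sizes of each chip's negative signals. Of the 22 probe sets 10 were above the floor on all 4 arrays of their chip, 5 on some and 7 on none. The 7 were the 6 _st controls, whose signals ran from -413 to 866, and aa516781_at of Actr3, whose signals were -186 in DU6, 76 in DU6i, -384 in DUKs and -112 in DBA.

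The actin control on chip A had a 3' signal of 19391 in DU6, 34426 in DU6i, 29305 in DUKs and 20315 in DBA. On chip B the same 3' probe set had 51202 in DU6, 38355 in DU6i, 57437 in DUKs and 34500 in DBA. DU6 was thus the lowest of the lines on chip A and the next to highest on chip B, although each line was the same pool on both chips. The log2 ratio of DU6 over DU6i was -0.83 on chip A and 0.42 on chip B, a difference of -1.24 between chips. For the middle probe set these ratios were -0.23 (0.05 after quantile normalisation) and -0.13, and for the 5' probe set -0.61 and -0.26.

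The 5' probe set had signals of 9148 in DU6, 13980 in DU6i, 16983 in DUKs and 8733 in DBA on chip A. On chip B it had 18610, 22273, 34590 and 18173 in the same order. DUKs was the highest line on both chips at this end of the transcript, and DU6 and DBA were the lowest. The log2 ratio of DU6 over DUKs was -0.89 on each chip, 1.86-fold lower in DU6. The middle probe set gave -0.51 and -0.38 for that pair.

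**Figure D1:**
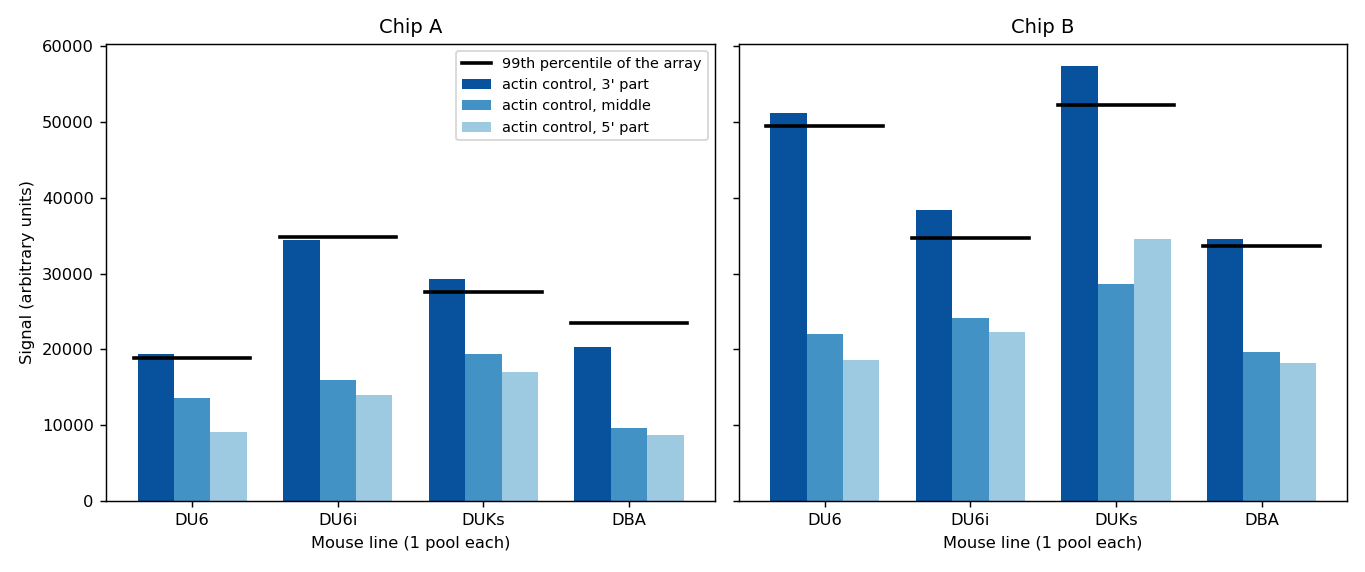
Signal in arbitrary units of the 3', middle and 5' actin control probe sets (bars) in each line on chip A (left) and chip B (right), with the 99th percentile of all signals of the array as a black line. The 3' bar ends near the black line on every array, between 86.6% and 110.6% of it, and DU6 has the lowest 3' bar on chip A and the next to highest on chip B.

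Signal toward the 5' end is also a measure of how far the labelled copies reached. The 3' to 5' ratio of the actin control ran from 1.73 in DUKs to 2.46 in DU6i on chip A, and from 1.66 in DUKs to 2.75 in DU6 on chip B. DUKs had the lowest ratio on both chips, and DU6i was highest on chip A and next to lowest on chip B at 1.72. The pyruvate carboxylase control divided the lines in another way. Its middle probe set MB, used throughout, had 15.3% of the 3' signal in DU6, 54.5% in DU6i, 53.9% in DUKs and 19.5% in DBA on chip A. A further middle set, MA, was above the floor on both chips in DU6i and DUKs alone.

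The bright end of the arrays differed between lines in the same order as the 3' actin control. Per array, the 99th percentile over all signals stood at 18810 in DU6, 34793 in DU6i, 27552 in DUKs and 23450 in DBA on chip A, and 49489, 34692, 52203 and 33622 on chip B. As a share of it, the 3' control stood at 103.1% in DU6, 98.9% in DU6i, 106.4% in DUKs and 86.6% in DBA on chip A. On chip B the shares were 103.5%, 110.6%, 110.0% and 102.6%. The highest line was 1.78-fold above the lowest on chip A by signal and 1.23-fold by this share, and on chip B 1.66-fold and 1.08-fold. The 5' control kept more of its spread, 1.66-fold by share on chip A and 1.76-fold on chip B.

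Actg1 had 1 probe set on each chip, both made from the same transcript record. Its chip A set m21495_f_at had signals of 20563 in DU6, 35770 in DU6i, 29356 in DUKs and 25121 in DBA. Its chip B set, also _f_at, had 49720 in DU6, 41826 in DU6i, 58664 in DUKs and 38054 in DBA. The lines stood in the order of the 3' actin control on each chip, and DU6 over DU6i again changed sign between chips, with log2 ratios of -0.80 and 0.25. After quantile normalisation, which gives all arrays of a chip one distribution, these became 0.16 and -0.36, and those of the 3' control 0.07 and -0.17. By share of the 99th percentile Actg1 on chip A was 109.3% in DU6, 102.8% in DU6i, 106.5% in DUKs and 107.1% in DBA, a spread of 1.06-fold against 1.74-fold by signal. On chip B the shares were 100.5%, 120.6%, 112.4% and 113.2%, a spread of 1.20-fold.

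Such narrowing was common among bright probe sets. Of the 131 probe sets in the top 2% of chip A by mean signal, 112 had a narrower spread by share than by signal, and the median spread was 1.32-fold by share and 1.98-fold by signal. On chip B it was 99 of 131, with medians of 1.44-fold and 1.77-fold. The bright probe sets themselves set the 99th percentile, so that the share is not an independent standard.

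**Figure D2:**
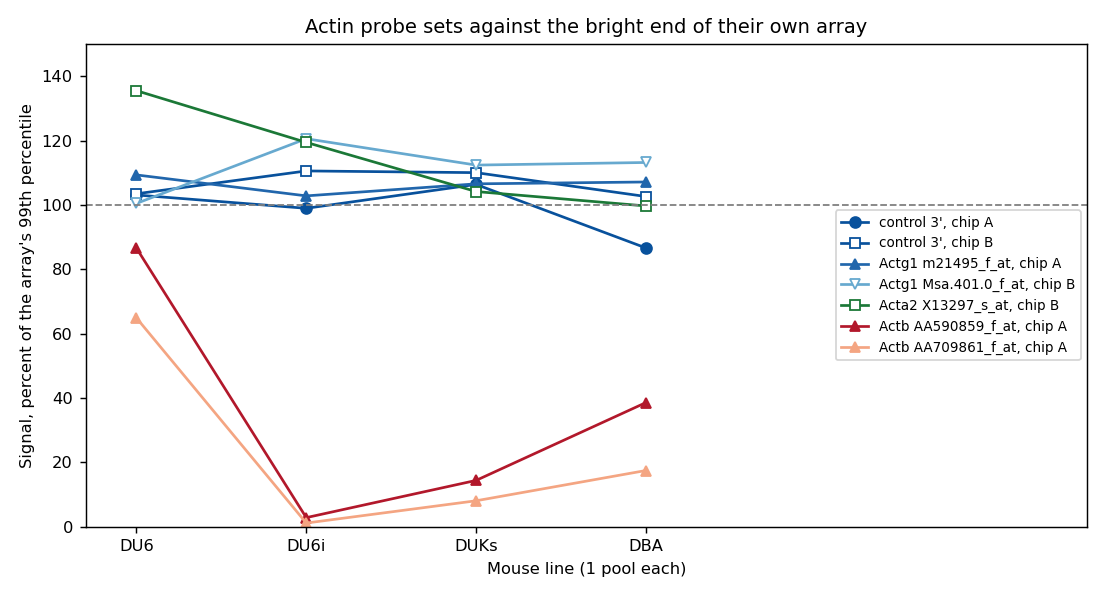
Signal of 7 actin probe sets as a percent of the 99th percentile of their own array (vertical axis) in the 4 lines (horizontal axis); filled symbols are chip A and open symbols chip B. The 3' control and Actg1 lie between 86.6% and 120.6% in every line, whereas the Actb _f_at sets run from 86.6% and 64.9% in DU6 to 2.8% and 1.2% in DU6i.

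The chips could be set against each other further with probe sets placed on both. In DU6 vs DU6i 17 such probe sets were above the floor on all arrays concerned, and 16 of them had a lower log2 ratio on chip A than on chip B. Without the 3 of actin the median difference was -0.48 over 14 probe sets, and the Gapdh 3' control went from one sign to the other as well, at -1.05 on chip A and 0.58 on chip B. Taken from these differences, the SD that belongs to one log2 ratio was 0.65 for DU6 over DU6i, 0.29 for DU6 over DUKs and 0.28 for DU6i over DBA. It covers hybridisation and chip, not pools or animals. A shift shared by the probe sets is counted in it: in DU6i vs DBA 0 of 17 had the lower ratio on chip A. Most of these probe sets are controls, so the SD may not hold for other genes.

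Other genes of the actin cytoskeleton with a probe set on each chip, above the floor on all arrays, were few. Gsn, which encodes the severing protein gelsolin, had a log2 ratio of DU6 over DU6i of -1.44 on chip A and 0.83 on chip B. Cfl1, which encodes cofilin, a protein that takes filaments apart, had -0.52 and 0.21. Capzb, of the capping protein, had -0.45 and -0.21. Of 7 such genes, Actg1 among them, 5 had the lower ratio on chip A and 3 changed sign. Msn, of a membrane linker, and Tln1, of talin, did not follow them and had the lower ratio on chip B.

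**Figure D3:**
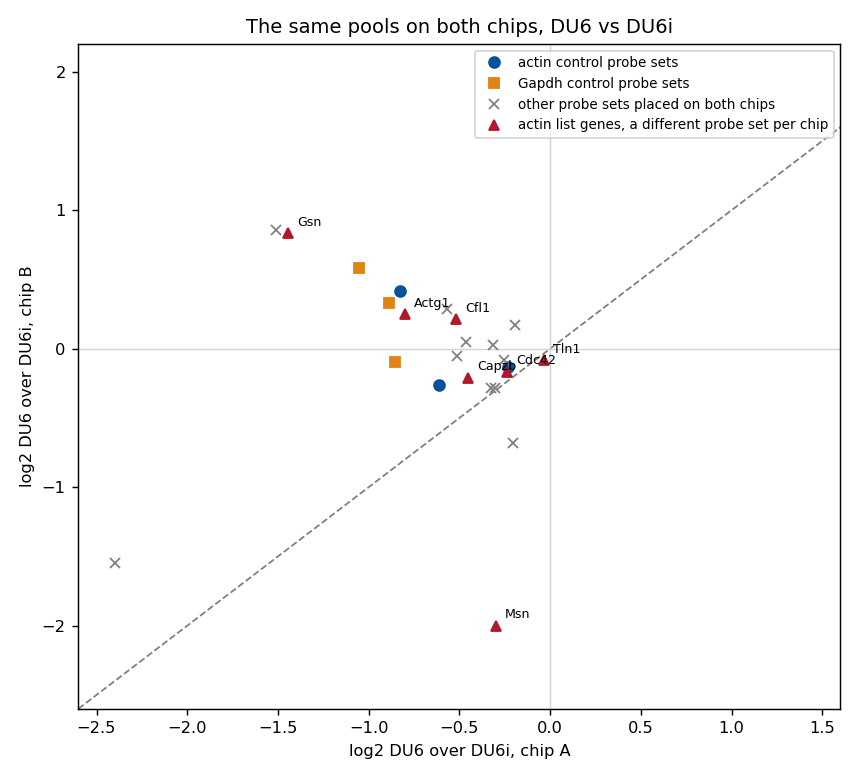
Log2 ratio of DU6 over DU6i on chip A (horizontal) and chip B (vertical) for probe sets placed on both chips and for 7 genes of the actin list with a different probe set on each chip; the dashed line marks equal ratios. Most points lie above the line, with Gsn at -1.44 and 0.83 and the actin 3' control at -0.83 and 0.42, and Msn lies below it.

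The 3 other Actb probe sets, all _f_at sets of chip A, gave a different picture. AA590859_f_at had signals of 16284 in DU6, 991 in DU6i, 3970 in DUKs and 9049 in DBA. AA709861_f_at had 12206 in DU6, 404 in DU6i, 2227 in DUKs and 4101 in DBA. In both the order was DU6, DBA, DUKs and DU6i, with DU6i under the floor. The third, j04181_f_at, had 3399 in DU6, 235 in DU6i, 901 in DUKs and 706 in DBA, and was above the floor in DU6 alone.

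In DU6 vs DUKs, AA590859_f_at was 4.10-fold and AA709861_f_at 5.48-fold higher in DU6, while j04181_f_at was at least 3.32-fold higher, a bound whose log2 value fell to 0.73, under 2-fold, with the floor doubled. In DU6i vs DBA, a pair that shares no array with the first, AA590859_f_at was at least 8.85-fold and AA709861_f_at at least 4.01-fold lower in DU6i. Between DU6 and its inbred derivative the first was at least 15.9-fold and the second at least 11.9-fold higher in DU6. By deposited signal the actin 3' control on the same arrays went the other way, 1.78-fold lower in DU6. After quantile normalisation the log2 ratio of this control was 0.07, and that of AA590859_f_at 4.19. On chip B the 3' control was higher in DU6 by deposited signal, at 0.42. The probe sets annotated to Actb and the actin control thus gave no single order of the lines.

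The share of probe sets with such a ratio was also counted by class. Of the _f_at sets of chip A measured in DU6 vs DU6i, 3.86% were 2-fold or more higher in DU6 and 16.1% lower, against 4.27% and 4.99% of all probe sets of the chip. AA590859_f_at was at least 2-fold higher in DU6 and DBA than in DU6i and DUKs, as were 13 of 3787 probe sets on chip A (0.343%). The pattern counted is that of this probe set, so nothing is read from the share. The other Actb sets did not meet it. AA709861_f_at was 1.84-fold higher in DBA than in DUKs, and j04181_f_at was under the floor in both, at 706 in DBA and 901 in DUKs. DU6 and DBA are also the lines with the low middle signal of pyruvate carboxylase, given above. The part of transcript length in the Actb signals was not tested.

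Acta2 had a single probe set, X13297_s_at on chip B. Its signals were 67057 in DU6, 41432 in DU6i, 54373 in DUKs and 33513 in DBA. The order was DU6, DUKs, DU6i and DBA, and DU6 stood 2-fold above DBA, a log2 ratio that was 0.46 after quantile normalisation. In DU6 vs DUKs the log2 ratio was 0.30 and in DU6i vs DBA 0.31. Each was near the SD of a ratio between chips (0.29 and 0.28), which includes any shared shift. By share of the 99th percentile Acta2 was 135.5% in DU6, 119.4% in DU6i, 104.2% in DUKs and 99.7% in DBA, so that both DU6 lines lay above both others, a split that the signals do not show.

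Other markers of smooth muscle and pericytes were mostly on chip A. Of the 13 list genes other than Acta2, 8 were on the chips, 7 of them on chip A, and their summed signals were 45365 in DU6, 72995 in DU6i, 43558 in DUKs and 61657 in DBA. This order, with DU6i first and DUKs last, is not that of Acta2. In DU6i vs DBA 7 of 8 were higher in DU6i, with a median log2 ratio of 0.52, and none reached 2-fold. In DU6 vs DUKs 5 of 7 were higher, with a median of 0.02. None of the 8 was at 0, and Des, of the intermediate filaments of muscle, was above the floor in DU6i and DBA alone.

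The promoters of Actg1 and Acta2 each hold a CArG box, the site of serum response factor, the transcription factor that drives many actin genes. Both stretches are shown because by deposited signal both genes had the same lines, DU6 and DUKs, above DU6i and DBA on chip B. It is not particular to these genes. The 99th percentile of the chip B arrays was split likewise (49489 in DU6 and 52203 in DUKs, against 34692 in DU6i and 33622 in DBA), as were other bright genes, among them Dcn and Ndufa1. That split did not hold after quantile normalisation, where Actg1 of DU6 over DU6i was -0.36 and Acta2 of DU6i over DUKs 0.30, nor for Actg1 on chip A. The letters searched, CCNTATATGG on both strands in the 250 bases before a start site, were chosen after these promoters had been read, and they are in capitals. The sequences and positions are RefSeq's for build GRCm38.p6, both on the minus strand. The Actg1 box begins 90 bases before the start and the Acta2 box 84.
Actg1, chr11:120348566-120348595: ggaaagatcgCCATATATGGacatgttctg
Acta2, chr19:34255438-34255467: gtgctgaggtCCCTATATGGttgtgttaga
These letters were found in 55 of 32851 promoter windows of the same length (0.167%), and not in the windows of Pfn1 and Actr3. The promoter of Actb was not analysed here. A match is a description of letters and says nothing of binding in these pools.

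Pfn1 had 2 probe sets on chip B, both _f_at and both made from the same transcript record. One set had signals of 5143 in DU6, 4758 in DU6i, 2728 in DUKs and 15754 in DBA, and X14425_f_at had 4111, 5305, 1913 and 13052 in the same order. DBA was the highest line and DUKs the lowest in both, with DUKs under the floor in X14425_f_at. In DU6i vs DBA Pfn1 was 3.31-fold and 2.46-fold lower in DU6i by the 2 sets. In DU6 vs DUKs it was 1.89-fold higher in DU6 by the first set and at least 1.82-fold by the second. DUKs lay near the floor in the first set too. The log2 ratio of 0.91 there was 0.19 with the floor doubled and 0.57 with the floor added to each signal. DUKs was 5.78-fold below DBA by the first and at least 5.78-fold by the second, where the floor stands for DUKs.

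The summed signals of epithelial and male tract markers were highest in DBA as well, though not those of every gene. All 6 genes of the mesothelium and epithelium list were on the chips, with summed signals of 30122 in DU6, 18471 in DU6i, 21333 in DUKs and 42202 in DBA. For the epididymis and male tract list, 6 of 9 genes were on the chips and the sums were 69008, 7463, 97039 and 149297, with Svs2, Svs4 and Svs5, secretions of the seminal vesicle, above the floor in DBA alone. The other male tract genes were highest in DUKs, among them Gpx5, with signals of 49126 in DU6, 52044 in DUKs and only 20753 in DBA. Sbp had 21028 in DUKs and was above the floor in no other line. In the epithelial list the 4 keratins were highest in DBA, Upk3b was highest in DUKs (5253, against 3942 in DBA), and Msln, which marks mesothelium, was under the floor in DUKs and DBA. The part of these cells in the Pfn1 signal was not tested.

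Actr3 was measured by aa122805_s_at of chip A, with signals of 4977 in DU6, 3459 in DU6i, 4473 in DUKs and 408 in DBA. The other lines lay within 1.44-fold of each other, and DBA was under the floor. DU6i was at least 3.38-fold and DUKs at least 4.37-fold above DBA, and DU6 over DUKs was 1.11-fold. With the floor doubled the log2 bound of DU6i over DBA was 0.76, under 2-fold. On both chips together 100 of 6075 probe sets (1.65%) had DBA lowest or highest by 2-fold or more against each other line. The pattern counted is that of Actr3, so nothing is read from this share. The second Actr3 probe set gave no measured value on any array.

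**Figure D4:**
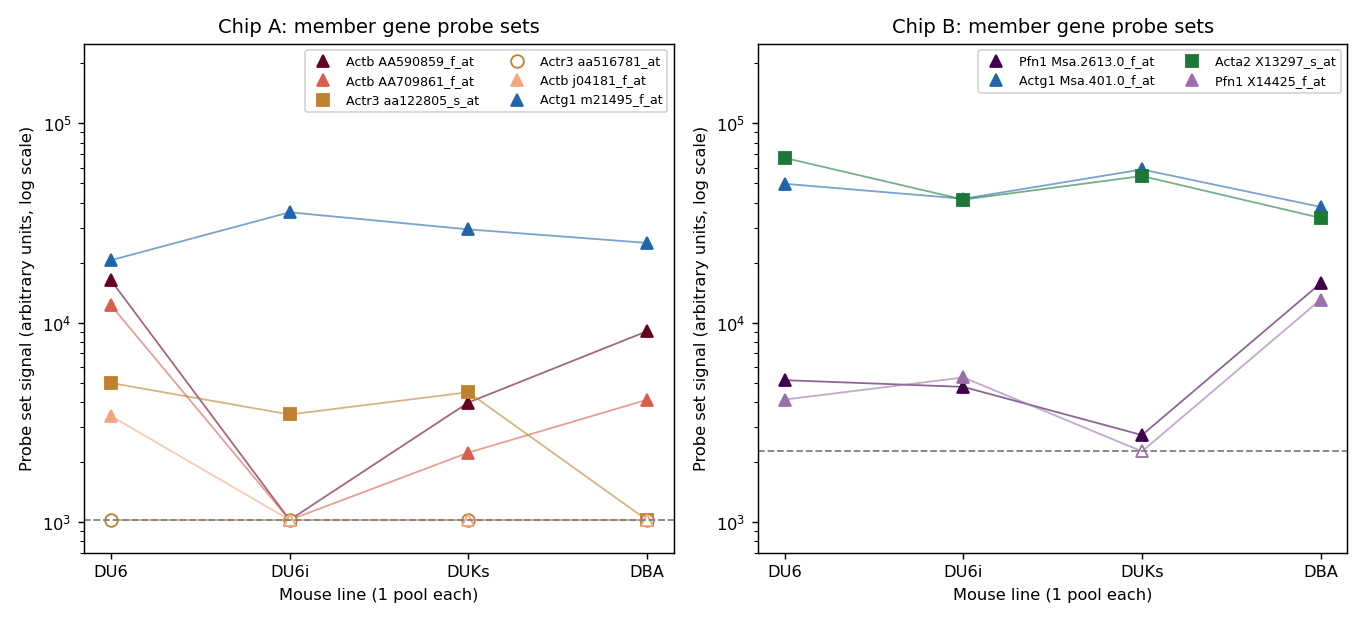
Signals of the 10 probe sets of the member genes (log axis, arbitrary units) in the 4 lines on chip A (left) and chip B (right); triangles are _f_at, squares _s_at and circles plain _at sets, and open symbols are signals at or under the floor, drawn on the dashed floor line. The Actb sets fall to the floor in DU6i, where Actg1 is highest at 35770, Actr3 falls to the floor in DBA, and both Pfn1 sets peak in DBA.

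By size, 3 of the 9 member probe sets measured in DU6 vs DUKs, controls left out, were 2-fold or more higher in DU6 and 0 were lower. The share over all probe sets was 3.91% higher and 6.3% lower, of 5604 measured. In DU6i vs DBA 1 of 8 was higher and 4 were lower in DU6i, where the shares over all probe sets were 4.79% and 6.68% of 5556. The genes were chosen on these signals, so nothing is read from the counts. The lower ones in DU6i were a pair of Actb sets and both Pfn1 sets, which are not independent of each other. None of the 6 control probe sets measured reached 2-fold in either pair.

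A list of 110 genes of the actin cytoskeleton was described with 1 probe set per gene, the brightest outside the AFFX controls. Of these genes 73 were on the chips. For Actb this left out the brighter 3' control. Its log2 ratios on chip A were -0.60 for DU6 over DUKs and 0.76 for DU6i over DBA. In DU6 vs DUKs 61 list genes were measured and 39 stood higher in DU6. Their median log2 ratio was 0.15 (0.10 on chip A alone and 0.34 on chip B alone), where all probe sets had 0.05. At 2-fold or more 1 list gene was higher there by the set taken, Actb by AA590859_f_at, and 1 lower, each 1.64%. The shares over all probe sets were 3.91% higher and 6.3% lower. The lower gene was Sptbn1, which encodes a spectrin of the membrane skeleton, with signals of 2418 in DU6 and 5712 in DUKs, 2.36-fold lower in DU6. Dimmer sets, not taken for the list, also passed 2-fold. Higher in DU6 were the other Actb sets, Myh9 by aa624011_g_at (14828 in DU6 and 3401 in DUKs, 4.36-fold) and Capg by X54511_f_at (at least 2.14-fold). The brightest Myh9 set gave 1.80-fold. Lower were Cttn by U03184_s_at (at least 2.78-fold) and sets of Msn and Tln1, given below.

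Membrane links, a group mostly of proteins that join filaments to membrane and adhesions, stood above DUKs in DU6 for all 7 genes measured. The brightest probe set of each was taken. The group as listed also holds Vim, of intermediate filaments, with 27664 in DU6 and 16545 in DUKs, a log2 ratio of 0.74. The median log2 ratio of the 7 was 0.44, where all probe sets had 0.05, and 0 of the 7 reached 2-fold. The ratios differed by chip. Those on chip B ran from 0.37 (Ezr) to 0.94 (Zyx), and those on chip A were 0.07 (Ctnna1) and 0.12 (Msn). For this pair 14 of 17 probe sets placed on both chips had the lower ratio on chip A. Dimmer sets of 2 genes of the group, Msn and Tln1, went the other way. A second Msn set had 2460 in DU6 and 5823 in DUKs, a log2 ratio of -1.24, and a Tln1 set of chip A had 1382 and 2978, a log2 ratio of -1.11. The third Tln1 set was at -0.09. Zyx, a protein of focal adhesions, was the nearest to 2-fold, at 10440 in DU6 and 5426 in DUKs. Tropomyosins and myosins had 6 of 10 higher, with a median of 0.31, and bundling and crosslinking proteins 5 of 7, also 0.31. These are the groups with the highest medians in this pair. The medians were 0.23 for severing and capping proteins, 0.18 for actins, 0.04 for the Arp2/3 group and 0.03 for profilins and monomer binders. Formins and Ena/VASP had -0.48, with 1 of 3 higher. In DU6i vs DBA 4 of 7 membrane links were higher, with a median of 0.01.

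In DU6i vs DBA 57 list genes were measured, 33 of them higher in DU6i, with a median of 0.05 where all probe sets had -0.03. At 2-fold or more, 6 were higher and 4 lower. Sptbn1 was 4.70-fold higher in DU6i, with 11252 in DU6i and 2392 in DBA. Rhob, a small GTPase, had 7662 in DU6i and 1215 in DBA, at least 3.39-fold higher, and Rhoa, its relative that drives stress fibres, had 3981 and 1673, 2.38-fold higher. Diaph1, a formin that elongates filaments, was at least 2.71-fold higher, with 6111 and 1996. Msn had 14311 and 7005, 2.04-fold higher.

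These genes did not separate the DU6 lines from the others. Sptbn1, Rhob, Rhoa and Diaph1 were each lower in DU6 than in DUKs, and a second Msn set, a plain _at set of chip B, had 2460 in DU6, 9836 in DU6i, 5823 in DUKs and 2962 in DBA. In each of these 5 probe sets DU6i and DUKs were the higher lines. The Msn set at 2-fold above was not among them, with 11624 in DU6 and 10691 in DUKs. The 5 sets shared this split with the middle signal of pyruvate carboxylase, which was high in DU6i and DUKs on chip B too (45.3% and 55.6%, against 12.7% in DU6 and 14.3% in DBA). The summed adipocyte markers had the split as well (292980 in DU6i and 235077 in DUKs, against 158331 in DU6 and 158978 in DBA). Those sums are not a comparison of adipocyte content, as said above. The part of transcript length or of adipocyte content in these ratios was not tested.

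Lower in DU6i than in DBA, beside Actb and Pfn1, were Ezr and Capg. Ezr, which encodes ezrin, a linker of epithelial microvilli, had 6391 in DU6, 4790 in DU6i, 4950 in DUKs and 14727 in DBA, 3.07-fold lower in DU6i than in DBA. Capg, a capping protein abundant in macrophages, had 9034, 5186, 4757 and 11735 in the same order, 2.26-fold lower in DU6i than in DBA. A second Capg set, X54511_f_at, gave 2.49-fold for that pair. DBA was the highest line in all of these, as it was for Pfn1 and for the epithelial keratins. Krt8 had 5714 in DU6i and 16360 in DBA, and Krt18 had 2066 in DU6i and 7959 in DBA. The macrophage list went the other way, with 8 of 9 genes higher in DU6i and a median log2 ratio of 0.75.

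**Figure D5:**
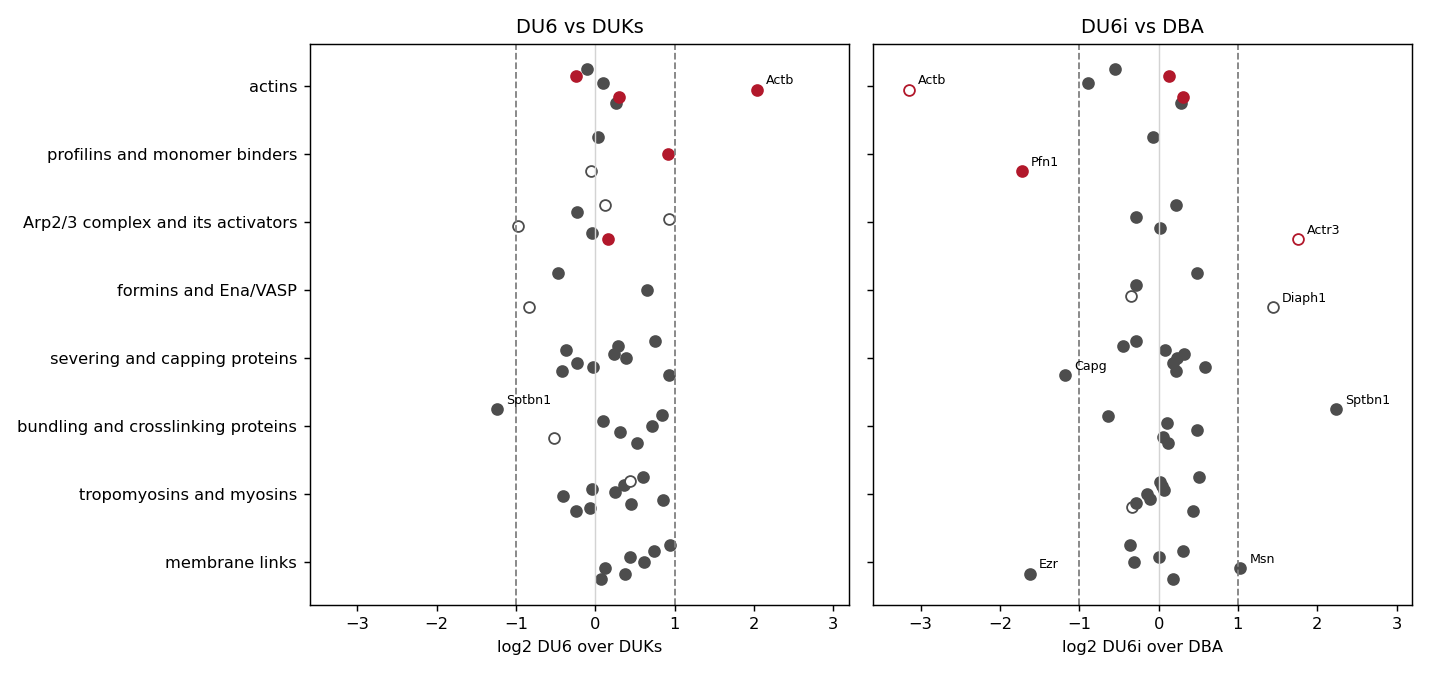
Log2 ratio of DU6 over DUKs (left) and DU6i over DBA (right) for 8 groups of the actin list, 1 point per gene; red points are the member genes, open points are bounds with 1 array under the floor, and dashed lines mark 2-fold. Most points lie inside the dashed lines in both pairs. Actb, drawn by AA590859_f_at and not by the brighter AFFX control, lies far out on opposite sides, at 2.04 and -3.15.

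The other muscle actins differed among themselves. Acta1, of skeletal muscle, was close to level and had signals of 8907 in DU6, 8729 in DU6i, 7457 in DUKs and 7193 in DBA. Actc1, the cardiac actin, had 6770, 7124, 6330 and 13233 by its brighter set, with DBA over 2-fold above DUKs, and 5521, 5261, 4834 and 5997 by x03767_f_at, with the lines nearer together. Actg2, of enteric smooth muscle, had 11635, 13508, 12521 and 19696, also highest in DBA. Both Actc1 sets and that of Actg2 are _f_at sets.

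Likeness over the 4 lines was measured as the root mean square difference of log2 signals centred on their mean, among named genes above the floor on all 4 arrays of the chip (2403 probe sets on chip A, 596 on chip B). Nearest to the actin 3' control on chip A were Ppp2r5a (0.03), Ahnak (0.04) and Entpd2 (0.05). Nearest to Actg1 on chip B were Dcn (0.06), Tpt1 (0.06) and Rpl27a (0.08), and to Acta2 Ndufa1 (0.08), Cfp (0.09) and C1qb (0.09). Nearest to Actr3 was Pdxdc1 (0.09), with 8772 in DU6, 6355 in DU6i, 7775 in DUKs and 1590 in DBA. Pfn1 had no near match, with Ezr closest at 0.37, and neither had AA590859_f_at of Actb, with C4bp at 0.37, a probe set added to this search after its values were seen. With 4 points a likeness is a description of these arrays.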

How the data were processed

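Per the labels, biotin-labelled RNA was transcribed from complementary DNA primed at the poly(A) tail. The authors obtained one linear intensity per probe set from Affymetrix software (Microarray Suite 4.0.1, Data Mining Tool 1.2, per the submitters' notes) and scaled every array on all its sets. Deposited intensities can be negative. Trimmed of the top and bottom 2%, each array averaged 2500, whatever the range of its signals. The number of arrays limits precision. From 3062 to 3350 of 6584 probe sets on chip A exceeded the floor, and from 1654 to 1839 of 6595 on chip B. The labels and value tables name no genome build, and the promoter positions are RefSeq's for GRCm38.p6.

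Gene names came from the platform annotation, with symbols updated by gene ID. One gene symbol was given for 5560 sets of chip A and 2001 of chip B, several for 197 and 27, and 827 and 4567 are unnamed here. No probe set with several symbols included a member gene. Lower signals took the floor's value before log2, and a pair needed 1 array above it. Bounds that rest on the floor are written "at least". A call is 2-fold or more, a rule of size. Background shares leave out the 110 AFFX probe sets, and pairs were compared within a chip. Named list genes passed 2-fold in DU6 vs DUKs or DU6i vs DBA, along with the 3 nearest genes in pattern. Zyx, Acta1, Actc1, Actg2, Gsn, Cfl1, Capzb, Tln1, Myh9 and Cttn were named after their values were seen. The members, lists and markers were chosen with earlier results of these data known. One group of the list is not reported here as a group. The calling code was tested on simulated data. Alternatives were 2 other floors, another log scale, quantile normalisation and rescaling to one median. Python 3.11.15, pandas 2.3.3, numpy 2.4.6 and matplotlib 3.10.9 were used.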

Additional observations from a re-analysis of the deposited data

Results flagged for a closer look

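AA590859_f_at and AA709861_f_at, both annotated to Actb, differed by over 2-fold in opposite directions in the main pairs. The log2 ratio of AA590859_f_at was 2.04 for DU6 over DUKs and -3.15 for DU6i over DBA, and that of AA709861_f_at was 2.45 and -2.00. The ratios of DU6i over DBA are bounds, since DU6i was under the floor. With 1 pool per line the difference between the pairs was not tested.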

How the results depend on the processing

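No paired analysis was possible because each line has 1 pool and 1 array per chip. Counting plain _at probe sets alone, 0 member probe sets reached 2-fold for DU6 over DUKs and 0 for DU6i over DBA, against 3 and 5, since the called sets are _f_at or _s_at. Rescaling to one median gave 5 in DU6 vs DUKs, 3 higher and 2 lower, where the deposited scaling gave 3 higher and 0 lower. The added ones were the 5' actin controls of both chips (log2 ratios of -1.03 and -1.01), and this scaling moved the median of all probe sets in that pair by -0.11. After quantile normalisation the count was 4 in DU6 vs DUKs, the fourth being a Pfn1 set at 1.01. The other alternatives kept both counts within 1.5 times, and the medians of the actin list moved by less than the SD between chips under each alternative. Quantile normalisation changed the bright actins: the 3' control of DU6 over DU6i was 0.07 on chip A and -0.17 on chip B, so the difference between chips was 0.24 in place of -1.24, and the DU6 ratio of 3' to 5' was 3.09 in place of 2.12 on chip A. Actg1 of DU6 over DU6i then gave 0.16 and -0.36, opposite in sign to the deposited scaling on each chip. No 2-fold member ratio changed sign under any setting. With the floor doubled j04181_f_at of Actb had a log2 bound of 0.73 in DU6 vs DUKs, which took the count there to 2, and Actr3 in DU6i vs DBA had a log2 bound of 0.76. Bounds rest on the floor, which limits what dim probe sets can show.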
